A study of Homo sapiens with 9 samples.

Results

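The genes described here encode the proteins of the cytosolic ribosome. They were taken from the table by symbol, as RPL or RPS followed by a number with an optional A, X, L, L1 or AL, or as RPLP0 to RPLP2 and RPSA, without use of any measured value. The rule found 83 of 16612 genes, of which 51 encode large subunit proteins (RPL) and 32 small subunit proteins (RPS). All 83 entered the test across 16312 genes, RPL3L among them through the knockdown libraries, since it had at most 1 count in any control library. RNA came from HNT34, a human acute myeloid leukemia (AML) cell line with a rearrangement at 3q26 and a high level of the transcription factor EVI1. All cells carried an shRNA under selection and were collected 3 days after selection, with 3 libraries for each of the shRNAs, which were a non-targeting control (NT) and sh#16 and sh#87 against EVI1. One cell line was used and the labels do not say if its libraries came from separate cultures, so SDs and p-values measure the spread between these libraries, which may be technical.

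A ribosome holds 1 copy of most of these proteins, so that cells make them in matched amounts. Their mRNAs are among the most abundant of a dividing cell and begin with a C followed by a run of pyrimidines, the 5′ terminal oligopyrimidine (TOP) tract, through which growth signals acting by mTOR control their translation. MYC, whose activity the study follows in these cells, is known to raise transcription of ribosomal protein genes. Some of the genes have a paralog that can take the place of the standard protein, and loss of 1 copy of several others causes Diamond-Blackfan anemia, a failure of red cell production. The study recovered many ribosomal proteins among the partners of EVI1 on chromatin and used RPL13A as a reference gene for PCR.

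The start region of the genes is shown first because the TOP tract is what their mRNAs are known to share. RefSeq (GRCh38.p14) start sites matched 67 of the 83 symbols, and in a window of 30 bases, 15 before and 15 from the start onward, a run of at least 8 bases that are each C or T was present on the coding strand in 49 genes (73.1%). Of all 27303 promoters there, 13.4% held such a run, while the run on the opposite strand was found in 0 of the 67 genes and in 10.8% of all promoters. The lines below give members to which the results return, with the longest C or T run of the window in capitals; the annotated start is base 16 of each line and need not be the start used in HNT34 cells.
RPL36A: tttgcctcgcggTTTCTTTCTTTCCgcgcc
RPL36AL: ctgTTTCTTCCCTTTCCTgttaggcgagag
RPL26: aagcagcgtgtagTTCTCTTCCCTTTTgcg
RPL26L1: agTCTTCCaggggtcggcgaacgaaacgcg
RPL22: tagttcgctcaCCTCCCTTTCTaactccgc
RPL22L1: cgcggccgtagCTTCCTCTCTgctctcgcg
RPL41: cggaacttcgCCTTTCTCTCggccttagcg
RPS10: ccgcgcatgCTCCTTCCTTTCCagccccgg
RPS19: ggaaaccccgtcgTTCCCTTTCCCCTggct
RPL13A: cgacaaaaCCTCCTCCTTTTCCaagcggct
These windows lie at chrX:101390996-101391025 on the plus strand for RPL36A, chr14:49620612-49620641 (minus) for RPL36AL, chr17:8383179-8383208 (minus) for RPL26 and chr5:172958714-172958743 (plus) for RPL26L1. The window of RPL22 is chr1:6199581-6199610 (minus), that of RPL22L1 chr3:170870181-170870210 (minus) and that of RPL41 chr12:56116618-56116647 (plus). RPS10 lies at chr6:34426055-34426084 (minus), RPS19 at chr19:41860240-41860269 (plus) and RPL13A at chr19:49487593-49487622 (plus). Among the shown genes the paralog RPL26L1 had a longest run of 6 bases against 14 in RPL26, while RPL36AL and RPL22L1 held runs of 15 and 10 bases.

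The libraries were first checked against their labels. MECOM, which encodes EVI1, was at 571, 504 and 440 CPM (counts scaled to a common library size after TMM normalization) in the NT libraries, at 145, 143 and 145 CPM with sh#16 and at 109, 107 and 106 CPM with sh#87, so that all 6 knockdown libraries lay below all 3 NT libraries. Of the hematopoietic markers, chosen after their values were seen, CD33 was between 33.1 and 44.5 CPM in all 9 libraries, while PTPRC was between 821 and 895 CPM in NT and between 96.4 and 148 CPM in the knockdown libraries. CD34, a stem and progenitor marker, was between 667 and 769 CPM in NT and between 41.2 and 118 CPM in the knockdown libraries, and the part of what changed these markers in the results was not tested. Depth was between 17096170 and 43502389 counts. The NT libraries stood apart from one another: the biological coefficient of variation was 24.9% over all genes and 29.4% over the ribosomal protein genes in NT, against 3.75% and 6.18% in sh#16 and 6.97% and 13.9% in sh#87. Mitochondrially encoded genes took 15.9%, 11.6% and 4.69% of the counts in NT replicates 1, 2 and 3, and between 2.69% and 5.97% in the knockdown libraries. NT replicate 3 was the NT library nearest to the knockdown mean for 51 of the 83 ribosomal protein genes (61.4%, against 53.1% of all genes), and sh#87 replicate 1 was the sh#87 library nearest to the sh#16 mean for 59 of them and for 42.2% of all genes.

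Counts of the 83 genes together made up 6.37%, 6.46% and 6.89% of all counts in the NT libraries. The share was 6.17%, 6.43% and 6.38% with sh#16, which overlapped with NT, and 5.07%, 4.68% and 4.64% with sh#87, lower than in the other 6 libraries. Because mitochondrial genes took more of the NT counts, the order of NT and sh#16 depended on the total: without them the share was 7.37% ± 0.179 in NT, 6.50% ± 0.145 with sh#16 and 5.07% ± 0.259 with sh#87 (SD, n = 3), and the 3 groups no longer overlapped. The summed level of the genes was 75532 ± 3683 CPM in NT, 59102 ± 1727 CPM with sh#16 and 44706 ± 2860 CPM with sh#87 (SD, n = 3). The balance between the subunits was measured as a ratio. The ratio of RPL to RPS counts was 1.42, 1.46 and 1.48 in NT, 1.47, 1.50 and 1.49 with sh#16 and 1.52, 1.45 and 1.46 with sh#87, with overlapping groups. In bulk RNA, fewer mRNA copies in every cell and fewer cells with a high level cannot be told apart.

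**Figure D1:**
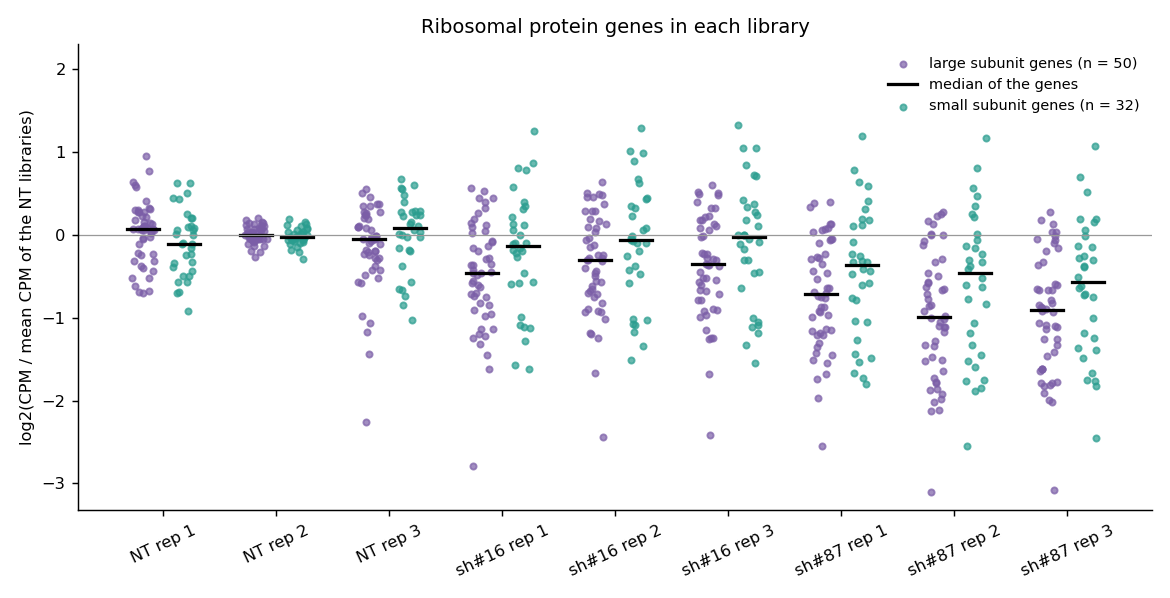
Level of each ribosomal protein gene in each library as log2 of CPM over the mean of the 3 NT libraries, for 50 large subunit genes (purple) and 32 small subunit genes (green) without RPL3L, with black bars at the median. Medians lie below 0 in all knockdown libraries and lowest with sh#87, and single genes spread over more than a unit in NT replicates 1 and 3 and in every knockdown library.

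With sh#16, 28 of the 83 genes fell and 6 rose relative to NT at an adjusted p of at most 0.01 (edgeR's quasi-likelihood test, Benjamini-Hochberg over all genes). That is 33.7% lower and 7.23% higher, where 30.2% of all genes tested were lower and 29.8% higher, so the share of members that fell was near the background. Their median log2 fold change was -0.25, beside 0.04 over all genes. Without NT replicate 3 the counts were 38 lower and 16 higher, without NT replicate 2 they were 20 and 2, and without 1 sh#16 library between 16 and 18 fell and between 1 and 3 rose.

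RPL36A, a large subunit protein near the exit site of the tRNA, had the lowest fold change with both shRNAs. It was at 1078, 486 and 118 CPM in NT, at 81.1, 103 and 105 CPM with sh#16 and at 96.1, 65.5 and 66.5 CPM with sh#87. All knockdown libraries lay below NT, although NT replicate 3 was close to the sh#16 libraries and the NT libraries themselves differed by 9.18 times. The log2 fold change was -2.54 ± 0.63 (SE) with sh#16 (adjusted p = 0.00529) and -2.88 ± 0.64 with sh#87 (adjusted p = 0.00249). Without NT replicate 1 it was -1.66 and -1.99. The call with sh#16 was lost without NT replicate 2 (adjusted p = 0.012), without any 1 sh#16 library (0.0188 to 0.0236), in a fit of only the 2 groups (0.0183) and with limma-voom (0.0199). The call with sh#87 was lost without sh#87 replicate 2 (0.0132) or 3 (0.0129). A readthrough row that joins RPL36A with HNRNPH2 held 9, 2 and 529 counts in NT and between 76 and 1787 in the knockdown libraries, and with its counts added the change with sh#16 was -2.10 (adjusted p = 0.0108).

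RPL26, at the rim of the exit tunnel of the large subunit, was at 3319, 2209 and 1129 CPM in NT, 722, 701 and 693 CPM with sh#16 and 566, 548 and 589 CPM with sh#87. RPS4X, the X-linked form of a small subunit protein, was at 3916, 2899 and 1832 CPM in NT, between 966 and 1013 CPM with sh#16 and between 846 and 870 CPM with sh#87. In both genes the knockdown libraries lay below every NT library and were close together within sh#16, whereas NT replicate 1 was 2.94 and 2.14 times as high as NT replicate 3. The log2 fold changes with sh#16 were -1.65 for RPL26 (adjusted p = 0.00106) and -1.54 for RPS4X (adjusted p = 0.000223). RPL22, which also binds RNA outside the ribosome, was among the 5 lowest with a narrower NT range: 871, 830 and 663 CPM in NT against 317, 332 and 331 CPM with sh#16 (log2 fold change -1.27 ± 0.10, adjusted p = 6.12e-06).

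Among the genes that rose, RPS19, the gene most often mutated in Diamond-Blackfan anemia, was at 173, 258 and 408 CPM in NT, 509, 564 and 575 CPM with sh#16 and 479, 490 and 452 CPM with sh#87. RPS9, which binds early in assembly of the small subunit, was at 210, 293 and 437 CPM in NT and between 539 and 580 CPM with sh#16. For both genes NT replicate 3 was again the NT library nearest to the knockdown libraries, without overlap. The log2 fold changes with sh#16 were 0.97 ± 0.25 for RPS19 (adjusted p = 0.00652) and 0.84 ± 0.21 for RPS9 (adjusted p = 0.00634). In a fit of only the NT and sh#16 libraries RPS19 and RPS9 did not pass (adjusted p = 0.0206 and 0.0198). Without NT replicate 2 they did not pass either (0.028 and 0.0272). Both calls were also lost whichever knockdown library was left out. The adjusted p was then between 0.0115 and 0.0211 for RPS19 and between 0.0112 and 0.0208 for RPS9. RPS18 rose by a log2 fold change of 0.60 (adjusted p = 0.00256) and RPL39, one of the shortest ribosomal proteins, by 0.47 (adjusted p = 0.00302). RPS18 did not pass without NT replicate 2 (0.0119) or sh#16 replicate 2 (0.012) or 3 (0.0125), and RPL39 did not pass in the fit of only the 2 groups (0.0107) or without sh#16 replicate 2 (0.0129) or 3 (0.013). RPL39 was at 375, 281 and 357 CPM in NT and at 443, 476 and 480 CPM with sh#16.

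RPL3L, a paralog of RPL3 known from muscle, is among the 6 and 2 genes counted as higher, but it passed the filter on low counts through the knockdown libraries alone, so its values are a description without a test. It had 0, 1 and 0 counts in NT, which is no more than the 3 counts per library treated as the limit of detection (0.13 CPM in the NT library where this limit is highest). With sh#16 it was at 0.755 ± 0.113 CPM and with sh#87 at 1.44 ± 0.476 CPM (SD, n = 3). Its level was therefore at least 5.81-fold higher with sh#16 and at least 11.0-fold higher with sh#87 than in NT. These counts were 0.0348% and 0.0784% of those of RPL3.

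With sh#87, 49 of the 83 genes fell and 2 rose relative to NT. The share that fell was 59.0%, where 33.6% of all genes tested fell, and the share that rose was 2.41%, where 34.3% of all genes rose. Their median log2 fold change was -0.72 beside 0.04 over all genes. When each library was left out in turn, between 40 and 54 genes fell and between 1 and 8 rose, the latter without NT replicate 3. RPL3L was one of the 2 genes counted as higher. After RPL36A (-2.88), log2 fold changes among the lowest were those of RPL26 at -1.97 ± 0.31 (adjusted p = 0.000316), RPL11 at -1.87 ± 0.38 (adjusted p = 0.0014) and RPL30 at -1.85 ± 0.11 (adjusted p = 6.92e-07). RPL11, which with RPL5 and 5S rRNA binds MDM2 and so links ribosome assembly to p53, was at 2660, 1811 and 774 CPM in NT and at 598, 404 and 432 CPM with sh#87. It was at 639, 766 and 734 CPM with sh#16, below NT by a log2 fold change of -1.29 that did not pass (adjusted p = 0.0111). RPL30 had a narrow range in every group, at 1383, 1326 and 1251 CPM in NT, 574, 576 and 552 CPM with sh#16 and 413, 302 and 385 CPM with sh#87.

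**Figure D2:**
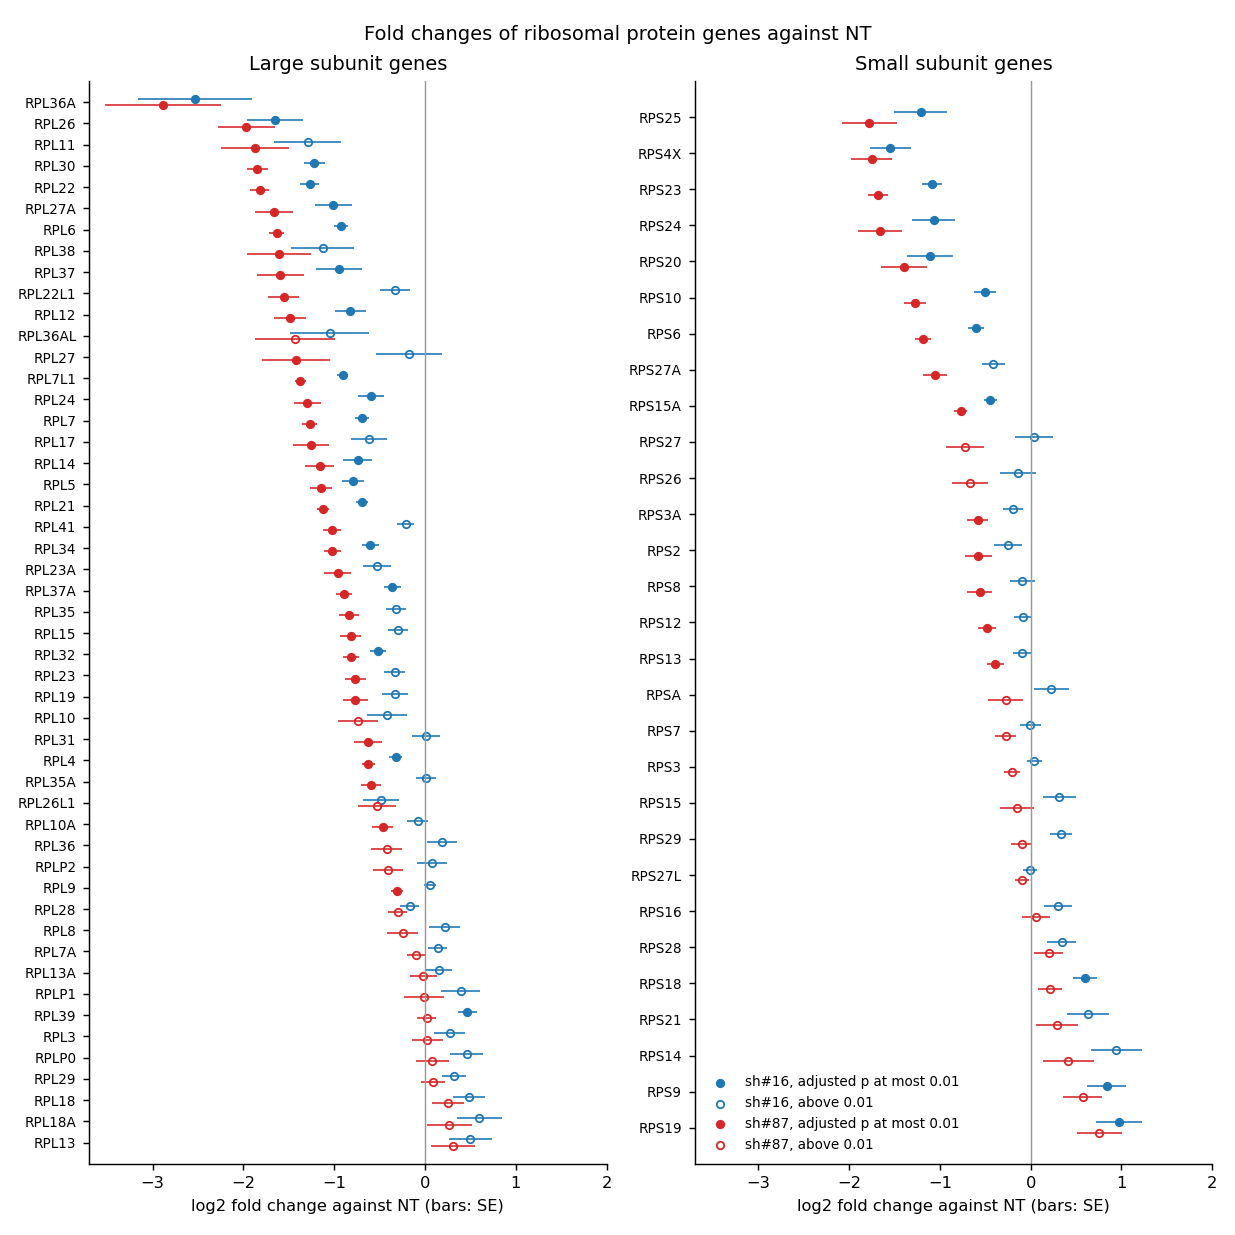
Log2 fold change against NT of each large subunit gene (left) and small subunit gene (right) with sh#16 (blue) and sh#87 (red), with bars for the SE and filled points at an adjusted p of at most 0.01; RPL3L, for which NT held at most 1 count, and members not reported here are left out. Both shRNAs are compared with the same 3 NT libraries, and the changes shown run from -2.88 for RPL36A to 0.97 for RPS19.

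The libraries of the 2 shRNAs were next compared directly. At an adjusted p of at most 0.01, 20 of the 83 genes (24.1%) were lower with sh#87 than with sh#16 and 0 were higher, where 9.42% of all genes were lower and 8.29% higher. At an adjusted p of at most 0.05 there were 42 lower and 0 higher, and DESeq2 gave 35 lower and 0 higher at 0.01. The shares of all genes called under these settings were not counted, so these counts cannot be set against a background. The fit takes its spread from all 9 libraries, including the variable NT group. In a fit of the 6 knockdown libraries alone 70 of the 83 genes were lower, where 24.6% of all genes were. In 73 of the 83 genes all 3 sh#87 libraries lay below all 3 sh#16 libraries, which was so for 34.3% of all genes. The exceptions were RPL19, RPL26L1, RPL28, RPL36A, RPL36AL, RPLP2, RPS15, RPS18 and RPS27L, whose libraries overlapped, and RPL3L, which was higher in all sh#87 libraries. The median log2 difference was -0.43 beside -0.02 over all genes, and it lay between -0.51 and -0.38 when each library was left out in turn. The count of 20 was between 5 and 7 without sh#16 replicate 1, 2 or 3 or sh#87 replicate 2 or 3, was 31 without NT replicate 1 and was 40 without NT replicate 3.

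Among the 20 genes the lowest difference was that of RPL22L1 (described with its partner), followed by RPL41, RPS10, RPL6 and RPL24. RPL41, the smallest ribosomal protein with a coding length of 75 bases, was at 1114, 968 and 1100 CPM in NT, 872, 969 and 909 CPM with sh#16 and 578, 489 and 497 CPM with sh#87. Its sh#16 libraries reached the lowest NT library, while its sh#87 libraries were far below both groups (log2 difference -0.81 ± 0.09, adjusted p = 0.000444). RPS10, at the head of the small subunit, was at 1122, 1117 and 919 CPM in NT, 706, 755 and 766 CPM with sh#16 and 508, 384 and 410 CPM with sh#87 (-0.77 ± 0.12, adjusted p = 0.00185). RPL6 was at 1679, 1689 and 1604 CPM in NT, 857, 875 and 885 CPM with sh#16 and 582, 482 and 540 CPM with sh#87 (-0.71 ± 0.08, adjusted p = 0.000444). RPL24, at the bridge between the subunits, was at 529, 547 and 437 CPM in NT, 306, 342 and 352 CPM with sh#16 and 253, 181 and 183 CPM with sh#87 (-0.70 ± 0.14, adjusted p = 0.0062). In RPS10, RPL6 and RPL24 the 3 groups did not overlap and sh#16 lay between NT and sh#87. The call of RPL24 was lost without any 1 knockdown library other than sh#87 replicate 1 and without NT replicate 2 (adjusted p from 0.0109 to 0.0299), and that of RPS10 without replicate 2 or 3 of either shRNA (0.0104 to 0.0117). Against NT, RPL24 and RPS10 fell with sh#16 (-0.60 and -0.50, adjusted p = 0.00439 and 0.00437), calls that were lost without NT replicate 2 or any 1 sh#16 library (0.0113 to 0.0213).

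**Figure D3:**
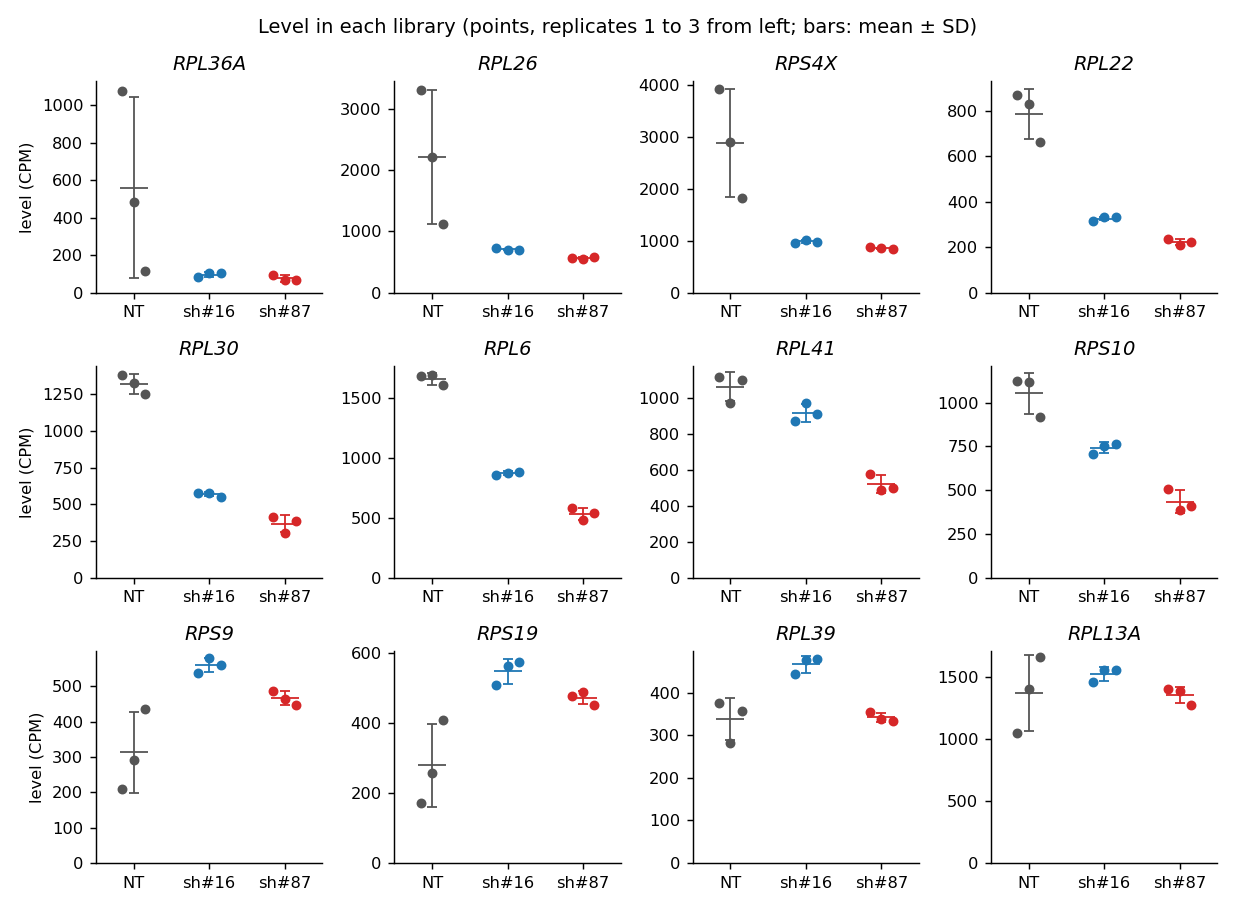
Level of 12 ribosomal protein genes in CPM in each library (points) with the mean and SD of each group (bars), on axes that start at 0. RPL36A, RPL26 and RPS4X fall from widely spread NT libraries, RPL22, RPL30, RPL6 and RPS10 fall in 2 steps from tight NT libraries, RPS9 and RPS19 lie higher in the knockdown libraries, and RPL13A overlaps between groups.

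The counts by structural group are to be read beside the shares of all genes, of which 30.2% fell and 29.8% rose with sh#16 and 33.6% fell and 34.3% rose with sh#87. By subunit, 18 of 51 large subunit genes (35.3%) fell and 2 rose with sh#16, and 10 of 32 small subunit genes (31.2%) fell and 4 rose, near the share of all genes that fell. The medians were -0.33 for the large and -0.09 for the small subunit. With sh#87, 33 of 51 large subunit genes (64.7%) fell and 1 rose with a median of -0.82, and 16 of 32 small subunit genes (50.0%) fell and 1 rose with a median of -0.52. The difference between the subunits was not tested. Of the 14 genes of the head of the small subunit, 3 rose with sh#16 (21.4%), RPS18 and RPS19 among them. A further 4 fell (28.6%, near the share of all genes), among them RPS10, RPS20 and RPS25. With sh#87, 6 of the 14 fell (42.9%) and 1 rose. The medians were 0.17 with sh#16 and -0.18 with sh#87. RPS20 was at 2956, 2056 and 1256 CPM in NT and between 956 and 985 CPM with sh#16. Of the 5 genes of the 5S particle and the P stalk, 1 fell with sh#16 and 2 with sh#87, and 0 rose with either. RPL5, which carries 5S rRNA with RPL11, was at 1853, 1641 and 1285 CPM in NT, between 888 and 943 CPM with sh#16 and between 706 and 726 CPM with sh#87 (log2 fold changes -0.79 and -1.15, adjusted p = 0.000303 and 2.17e-05). The stalk proteins RPLP0, RPLP1 and RPLP2, which recruit elongation factors, passed the test in neither comparison with NT, and RPLP0 was at 837, 1215 and 1543 CPM in NT against 1629, 1647 and 1668 CPM with sh#16 and 1263, 1310 and 1228 CPM with sh#87. Of the 7 genes at the rim of the exit tunnel, 1 fell and 1 rose with sh#16 and 6 fell with sh#87 (85.7%, median -0.84). RPL39 was the exception with sh#87, at 354, 338 and 333 CPM, within the NT range. Of 16 Diamond-Blackfan genes, 5 fell (31.2%, near the background) and 1 rose with sh#16 (median -0.16), and 10 fell (62.5%) and 0 rose with sh#87 (median -0.77).

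Paralogs were compared as the ratio of their counts within a library, which does not depend on library scaling. Of 8 pairs, 5 had at least 10 counts of both genes in every library. The paralogs of RPL39 and RPL10 were not analysed here. RPL3, whose paralog RPL3L was too low for a ratio, was at 1300, 1702 and 2263 CPM in NT, between 2008 and 2199 CPM with sh#16 and between 1682 and 1926 CPM with sh#87. For RPL36AL over RPL36A, which encode nearly the same protein, the ratio in percent was 14.7, 17.6 and 29.1 in NT, between 44.2 and 48.2 with sh#16 and between 42.5 and 49.1 with sh#87. For RPL26L1 over RPL26 it was 0.401, 0.548 and 0.684 in NT, between 1.02 and 1.17 with sh#16 and between 1.19 and 1.62 with sh#87. RPL22L1 over RPL22, whose protein is known to repress RPL22L1, was at 3.61, 3.28 and 2.93 in NT, between 5.95 and 6.67 with sh#16 and between 3.79 and 4.10 with sh#87. In each of these 3 pairs all 6 knockdown libraries lay above all NT libraries, by 1.23, 1.20 and 0.62 on the log2 scale. A 2-sided exact permutation test of 6 against 3 libraries gave p = 0.0238 for each, the smallest it can give here, and 0.0397 after adjustment over 5 pairs. When a library was left out the adjusted p was above 0.05 in all but 1 case for each pair, since the smallest p rises with fewer libraries.

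The members of these pairs moved in different ways. RPL36AL was at 158, 85.5 and 34.2 CPM in NT and between 30.1 and 48.5 CPM in the knockdown libraries, so that NT replicate 3 lay within them, and it passed the test with neither shRNA (log2 fold changes -1.05 and -1.43, adjusted p = 0.0535 and 0.0143). RPL26L1 was at 13.3, 12.1 and 7.71 CPM in NT and between 6.70 and 9.15 CPM in the knockdown libraries, and it did not pass either (-0.48 and -0.53, adjusted p = 0.0561 and 0.0387). RPL22L1 was at 31.4, 27.2 and 19.4 CPM in NT, 18.8, 21.0 and 22.1 CPM with sh#16 and 9.69, 8.36 and 8.44 CPM with sh#87. It overlapped with NT in sh#16 (log2 fold change -0.33, adjusted p = 0.0914) and was lower in all sh#87 libraries than in any other (-1.56 ± 0.17 against NT, adjusted p = 2.63e-05; -1.22 ± 0.17 against sh#16, adjusted p = 0.00104). The RPL22L1 ratio differed between the shRNAs by -0.67 without overlap, and an exact test of 3 against 3 libraries cannot go below 0.10 (adjusted p = 0.167). The 2 pseudogene rows of RPL22 held up to 47.8% of its counts in a library, and with them added the knockdown difference of the ratio was 0.83 on the log2 scale.

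RPL7L1, a paralog of RPL7 with a role in assembly, fell in parallel with its partner. RPL7L1 was at 264, 260 and 249 CPM in NT, between 137 and 139 CPM with sh#16 and between 93.9 and 102 CPM with sh#87 (log2 fold changes -0.91 and -1.37, adjusted p = 1.28e-06 and 8.05e-08). RPL7 was at 2190, 1945 and 1978 CPM in NT, between 1208 and 1294 CPM with sh#16 and between 805 and 880 CPM with sh#87 (-0.69 and -1.27, adjusted p = 4.82e-05 and 7.29e-07). Their ratio differed by -0.16 on the log2 scale between knockdown and NT libraries (exact p = 0.0952, adjusted p = 0.119). RPS27L, described as a p53 target, was between 35.0 and 41.6 CPM in all 9 libraries, while RPS27 was at 319, 311 and 262 CPM in NT, 267, 310 and 337 CPM with sh#16 and 252, 142 and 148 CPM with sh#87. The RPS27 level in sh#87 replicate 1 was thus nearer to sh#16 than to the other sh#87 libraries. The RPS27L/RPS27 ratio differed by 0.31 on the log2 scale between knockdown and NT (exact p = 0.429). Its mean in percent was 13.1 in NT, 12.7 with sh#16 and 21.4 with sh#87. It was higher with sh#87 than with sh#16 by 0.72 on the log2 scale, without overlap. The exact test of the shRNAs cannot go below 0.10 (adjusted p = 0.167). Against NT there was overlap, with sh#87 replicate 1 at 14.5 below NT replicate 3 at 15.2.

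**Figure D4:**
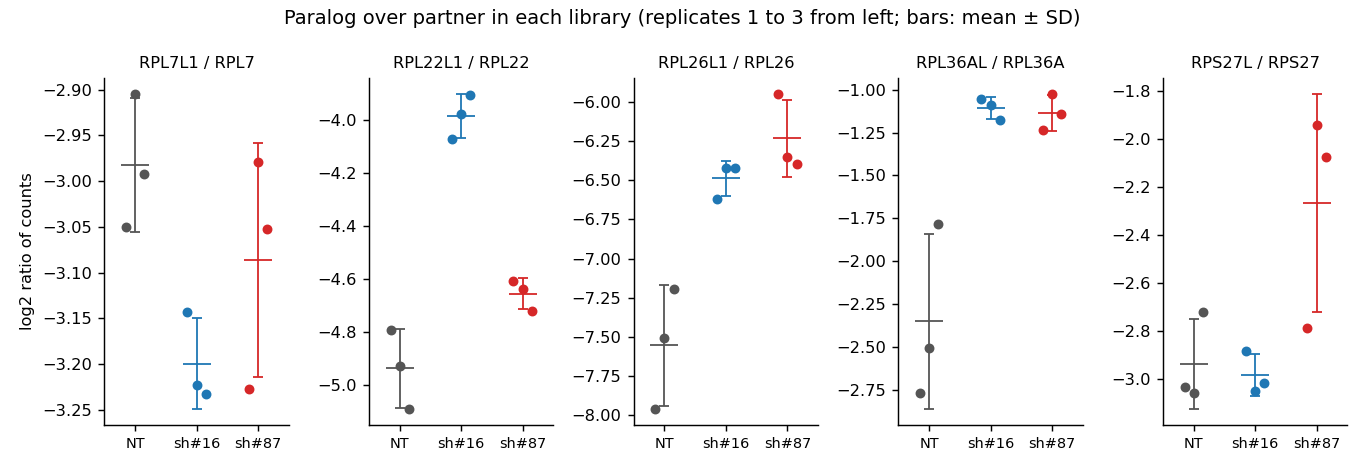
Log2 ratio of the counts of a paralog to those of its partner in each library (points) with the mean and SD of each group (bars); axes differ between panels and do not start at 0. RPL22L1, RPL26L1 and RPL36AL lie higher relative to their partners in all 6 knockdown libraries, and for RPL22L1 the sh#87 libraries lie between NT and sh#16.

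Several members matter to the study for other reasons. RPL13A, its reference gene for PCR, was at 1054, 1406 and 1662 CPM in NT, 1463, 1561 and 1557 CPM with sh#16 and 1404, 1388 and 1279 CPM with sh#87. The groups overlapped, with log2 fold changes of 0.15 ± 0.15 (adjusted p = 0.367) and -0.02 ± 0.15 (adjusted p = 0.913). ACTB, its other reference gene, was at 2998, 3529 and 3853 CPM in NT, between 4551 and 4629 CPM with sh#16 and between 2651 and 2737 CPM with sh#87 (0.41 and -0.37, adjusted p = 0.00513 and 0.00848). Of the ribosomal proteins the study lists among EVI1 partners, RPL14 fell with both shRNAs (-0.74 and -1.16, adjusted p = 0.00253 and 0.000136), from 787, 629 and 490 CPM in NT to between 360 and 396 CPM and between 262 and 326 CPM. Its call with sh#16 was lost without sh#16 replicate 1 (adjusted p = 0.0127). RPS2 was at 2530, 3391 and 4036 CPM in NT, between 2682 and 2900 CPM with sh#16 and between 2139 and 2330 CPM with sh#87, and fell with sh#87 by a log2 fold change of -0.58 (adjusted p = 0.00643; with sh#16 it was -0.25, adjusted p = 0.162). Its difference between the shRNAs did not pass (-0.33, adjusted p = 0.127). The call of its fall with sh#87 was lost in a fit of only those 2 groups (adjusted p = 0.0272) and without NT replicate 2 (0.0205). It was also lost without any 1 of the 6 knockdown libraries (0.0121 to 0.0273), with upper-quartile factors (0.0168) and with the replicate block (0.0122). RPL18 was at 344, 545 and 591 CPM in NT and between 542 and 703 CPM in the knockdown libraries, and passed with neither (0.48 and 0.25, adjusted p = 0.0305 and 0.203). Of the 45 members in the partner list, 14 fell (31.1%) and 3 rose with sh#16 (median -0.25) and 28 fell (62.2%) with sh#87 (median -0.62), where 30.2% and 33.6% of all genes fell. Of the 38 other members, 14 fell and 3 rose with sh#16 (median -0.27) and 21 fell and 2 rose with sh#87 (median -0.96).

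Genes of related classes outside the symbol rule were set beside them. FAU, which encodes RPS30 fused to a ubiquitin-like protein, was at 168, 175 and 155 CPM in NT, 148, 171 and 165 CPM with sh#16 and 140, 127 and 116 CPM with sh#87 (log2 fold changes -0.04 and -0.38, adjusted p = 0.705 and 0.0035). RPS27A, a member with a ubiquitin fusion, was at 699, 637 and 647 CPM in NT, between 447 and 535 CPM with sh#16 and between 278 and 388 CPM with sh#87 (-0.41 and -1.05, adjusted p = 0.0176 and 6.32e-05). Of 14 other mRNAs with a TOP tract, translation factors for the most part, 10 fell with sh#16 (71.4%, beside 30.2% of all genes) and 11 with sh#87 (78.6%, beside 33.6%), and 0 rose (medians -0.84 and -1.25). All 4 proteins that bind TOP mRNAs in the list, among them LARP1, fell with both shRNAs. Of 18 chaperones of ribosomal proteins and late subunit factors, 10 fell (55.6%) and 2 rose with sh#16 and 12 fell (66.7%) and 2 rose with sh#87, AAMP and LSG1 being the genes that rose.

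The members differed in base composition, and so did the libraries. Coding GC content of the 83 genes ranged from 40.4% (RPL22L1) to 63.0% (RPS15), with a median of 50.9%. Without RPL3L, it was related to the log2 fold change across 82 members with Pearson's r = 0.54 and Spearman's rho = 0.58 for sh#16 and with r = 0.56 and rho = 0.57 for sh#87. These correlations are across genes of the same libraries and are a description, since genes are not independent replicates. In the 27 members of lowest GC content, up to 47.5%, 25 fell with sh#87 and 0 rose (median -1.26), in the 27 of the middle group 17 fell (median -0.77), and in the 28 of highest GC content 7 fell and 1 rose (median -0.08). Of all genes tested, 33.6% fell and 34.3% rose with sh#87, and shares of all genes within these GC ranges were not counted. The same relation held between libraries of one group: the log2 difference of NT replicate 1 from NT replicate 3 was related to coding GC content with r = -0.52 across the members. With the GC content of the whole transcript this difference gave r = -0.48 across the 82 members and -0.62 across 13854 genes, and the fold changes with sh#16 and sh#87 gave 0.50 and 0.52 across members and 0.24 and 0.24 across the 13854 genes. After each library's trend on length and GC content was removed, 36 members were lower and 4 higher with sh#16 (median -0.35). The median of all genes was then -0.07 with sh#16 and -0.06 with sh#87. Before this correction the medians with sh#16 were -0.25 for members and 0.04 for all genes. With the correction 51 members were lower and 2 higher with sh#87, and 17 were lower with sh#87 than with sh#16. Shares of all genes called after the correction were not counted. RPL39, RPS18 and RPS9 then no longer passed with sh#16. The part of base composition in the differences from NT was not tested beyond this. The length of the C or T run at the annotated start had almost no rank correlation with the change. Spearman's rho across 67 members was 0.02 with sh#16 and 0.04 with sh#87. The median change with sh#16 was -0.09 in the 49 with a run of at least 8 bases and -0.35 in the other 18. With sh#87 these medians were -0.62 and -0.78, and the differences were not tested.

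**Figure D5:**
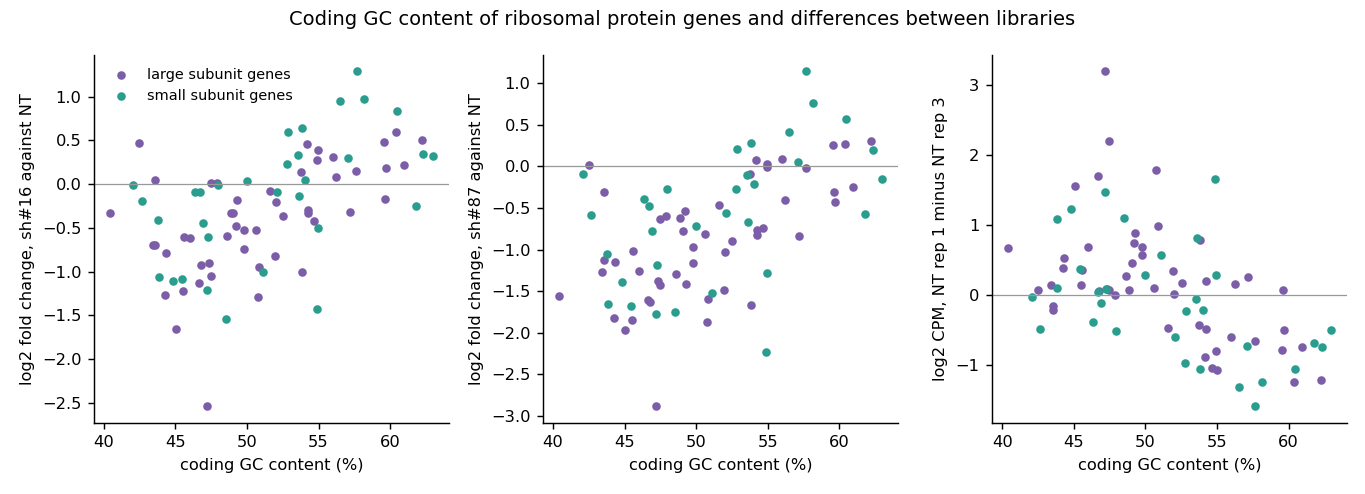
Coding GC content in percent (horizontal axis) of 82 ribosomal protein genes against the log2 fold change with sh#16 (left) and sh#87 (middle), and against the log2 CPM difference between NT replicates 1 and 3 (right), with large subunit genes in purple and small subunit genes in green. Points rise from left to right in the first 2 panels (r = 0.54 and 0.56) and fall in the third (r = -0.52), which compares libraries of the same group.

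Ribosomal protein genes have many processed pseudogenes, so that reads may be shared among copies. The table held 149 pseudogene rows and 3 readthrough rows for 55 of the members, and these took between 0.109% and 0.150% of all counts. The copies reached more than 10% of the member's counts in some library for RPL21, RPL22, RPL23A, RPL36A and RPL9, whose values are uncertain to that extent.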

How the data were processed

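HNT34 cells carrying NT, EVI1 sh#16 or EVI1 sh#87 were sequenced from polyA-selected RNA with a stranded kit, with 3 libraries per group. One table of 16612 gene symbols was used, in which the authors deposited estimated counts without normalization. The table's header names salmon output, while the submitters' processing notes name FastQC 1.3, STAR and GRCh38. Its header stands 1 column left of the values, and all values were whole numbers, so none was rounded. Groups came from the sample titles; one label gives another number for the sh#87 shRNA. Depth was 17096170 to 43502389 counts, and the limit of 3 counts per library covers counting error only.

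Counts were tested in R 4.3.3 with edgeR 4.0.16 (TMM, filterByExpr, 1 quasi-likelihood fit of 3 groups, Benjamini-Hochberg adjustment over 16312 genes), and genes were called where the adjusted p was 0.01 or less, at any fold change. DESeq2 1.42.0, which the study names, limma-voom (limma 3.58.1) and the other settings of the closing section were alternatives. Paralog ratios were log2((paralog + 0.5)/(partner + 0.5)) and were tested with exact permutation tests in scipy 1.17.1. Gene length and GC content came from GENCODE transcripts on GRCh37 for 14019 genes (84.4%) and all members, and were corrected by loess (span 0.5, degree 1). The scripts were tested on simulated data. The members, the lists and the rule for named genes were chosen with earlier results of these data known. That rule took, per comparison, the 5 highest and 5 lowest log2 fold changes among members called, the paralog pairs, the members the study names and ACTB. Other members described were chosen after their values were seen. Some members that the rule names are not reported here by name, though they are in all counts and medians. Protein sequences were not used here, and neither were data from other experiments of the study.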

Additional observations from a re-analysis of the deposited data

Results flagged for a closer look

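The comparison of sh#87 with sh#16 is a direct test of whether the effects of the 2 shRNAs, each against the same NT libraries, differ. Of the named members, 9 passed it at an adjusted p of at most 0.01 (edgeR's quasi-likelihood test). All were lower with sh#87, by log2 differences of -1.22 for RPL22L1, -0.81 for RPL41, -0.77 for RPS10, -0.71 for RPL6, -0.70 for RPL24, -0.63 for RPL30, -0.58 for RPL7, -0.55 for RPL22 and -0.47 for RPL7L1. In each of these genes the 3 sh#87 libraries lay below the 3 sh#16 libraries, which was so for 34.3% of all genes, called or not. The genes were picked by a call on these same libraries, so the lack of overlap adds no support. The adjusted p was between 0.000444 and 0.0062. The call of RPL22 was lost without any 1 of the 6 knockdown libraries (0.0112 to 0.0229; 0.0112 without sh#87 replicate 1) and with copies added (0.0359), that of RPL24 without 5 of them or NT replicate 2 (0.0109 to 0.0299), and those of RPL30 (0.0125 to 0.0162) and RPS10 (0.0104 to 0.0117) without 4 of them each. MECOM itself was lower with sh#87 than with sh#16 (log2 difference -0.43, adjusted p = 0.00661), and its part in these differences was not tested. None of 7 measures in the 6 knockdown libraries (the share of counts, the subunit ratio and 5 paralog ratios) had a library whose gap to the next exceeded 0.625 of the range.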

How the results depend on the processing

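Counts of members passing the test depended on the settings more than their direction did. Shares of all genes called were counted only for the main fit and the fit of the 6 knockdown libraries, so the other counts have no background beside them. For sh#16 against NT, the 6 higher members became 2 in a fit of only those groups, 11 at an adjusted p threshold of 0.05, 2 and 1 with log2 fold changes required to reach 1 and 2 in size, and 1 to 16 when 1 library was left out. The 28 lower members became 12 and 1 with these fold change thresholds, and 16 to 38 without 1 library. For sh#87 against NT, the 2 higher became 4 with DESeq2, 1 in a fit of only those groups, 4 at 0.05, 1 with a change of at least 2, 1 without NT replicate 1 and sh#87 replicate 1, and 1 to 8 without 1 library. The 49 lower became 31 and 2 with the fold change thresholds. For sh#87 against sh#16, the 20 lower became 35 with DESeq2, 70 in a fit of only those groups, 42 at 0.05, 1 and 0 with the fold change thresholds, 41 without NT replicate 1 and sh#87 replicate 1, and 5 to 40 without 1 library. The median log2 fold change moved with upper-quartile factors to -0.14 (sh#16) and -0.60 (sh#87), while the median of all genes moved from 0.04 to 0.14 and 0.15. With the length and GC correction it was -0.35 with sh#16, where the median of all genes was -0.07. The sh#87 to sh#16 difference was then -0.33 beside -0.02 over all genes, and without 1 library the sh#87 median was -0.77 to -0.61. The share of counts without mitochondrial genes was 7.37%, 6.50% and 5.07%, and the large to small subunit ratio with copies added was 1.48 in NT and 1.51 with sh#16.

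Replicate numbers are shared by the groups, and same-numbered libraries showed little common deviation (r from -0.137 to 0.0826). The labels do not say what the number stands for, so a pairing is not excluded. With the replicate block, 11 members were lower with sh#87 than with sh#16, and 23 and 46 were lower with sh#16 and sh#87 than in NT. Of the paralog ratios, knockdown minus NT without 1 library was 0.53 to 0.70 for RPL22L1/RPL22, 0.99 to 1.38 for RPL26L1/RPL26, 1.02 to 1.52 for RPL36AL/RPL36A and -0.19 to -0.12 for RPL7L1/RPL7, which passed only without sh#87 replicate 2 (adjusted p = 0.0446). The RPL36AL/RPL36A difference between the shRNAs changed sign with copies added (0.25) and was -0.082 to 0.0227 without 1 library. Of 45 named calls, 28 were unchanged in the 22 settings. Over the 990 values 886 kept direction and call, 104 lost the call and 0 reversed. Causes were not tested. The setting without NT replicate 1 and sh#87 replicate 1 was chosen after seeing the data. The spread of the NT libraries, above that of the knockdown libraries, limits what can be called against NT.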
